A study of Canis lupus familiaris with 11 samples.

Results

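The 10 genes described here belong to the unfolded protein response and the integrated stress response: HSPA5, HSP90B1, XBP1, HERPUD1, ATF4, DDIT3, ASNS, TRIB3, CHAC1 and DDIT4. They were taken by name from a table of 26178 dog genes; where the name column held a placeholder, the gene name in the protein description was used, which applied to HSP90B1, to XBP1 and to an ATF4 pseudogene row. In all 12 rows matched. That pseudogene row and an additional XBP1 row had 0 reads in every library, and the 10 remaining rows, 1 per gene, all passed the filter on low counts and were tested. RNA was sequenced from MDCKII, an epithelial cell line from dog kidney, and from a derivative of it, LMNA KO, made to lack the gene for lamin A and C of the nuclear lamina. Control cells were cultured to a confluent sheet for 3 to 4 days without compression. Compressed cells were grown the same way, pressed together laterally and left to recover for 2 h before RNA was taken. Each WT condition had 3 libraries, the KO controls had 2 and the compressed KO cells had 3. The labels do not say how LMNA was disrupted, whether the KO line is 1 clone, how strongly or how long cells were compressed, or whether replicates were separate cultures, so the p-values measure the spread between these libraries, which may be partly technical.

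When unfolded proteins accumulate in the endoplasmic reticulum (ER), the sensors IRE1, PERK and ATF6 raise the cell's folding and disposal capacity. IRE1 splices XBP1 RNA into the form that encodes an active transcription factor, and ATF6 and XBP1 induce chaperones such as HSPA5 and HSP90B1. PERK and other kinases that sense amino acid shortage, viral RNA or haem deficiency phosphorylate eIF2, which lowers protein synthesis while ATF4 protein is made in larger amounts, and ATF4 then induces genes such as ASNS, TRIB3, CHAC1 and DDIT3. Gene-level read counts show neither XBP1 splicing nor ATF4 translation, so the values below are RNA levels only.

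The libraries held 10420214 to 17999623 assigned reads. LMNA averaged 940 CPM (reads scaled to a common library size with TMM factors) in WT control and 807 in WT compressed libraries, against 45.1 in KO control and 34.9 in KO compressed libraries, and no KO library overlapped a WT library. Kidney epithelial markers were present: 9 or 10 of 10 reached a mean of 1 CPM in each group, with sums of 4646 to 8071 CPM. Of 10 fibroblast and smooth muscle markers only PDGFRA and MYH11 reached 1 CPM, with sums of 23.9 to 31.8 CPM. Of 8 immune markers found only CD14 reached 1 CPM, at 1.21 to 7.60 CPM in single libraries; PTPRC, CD3E and MS4A1 were at 0, and the sums were 2.02 to 8.91 CPM. Of 8 endothelial markers KDR reached a mean of 1 CPM in WT controls, with up to 2.76 CPM in a library, and the sums were 0.088 to 4.33 CPM. In each group of 3, the library that correlated least with the other 2 was WT control 1, WT compressed 3 and KO compressed 2.

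Levels between genes were compared per transcript length, as the deposited FPKM (fragments scaled to gene length and library size). ATF4 had the highest mean level over the 11 libraries, 566 FPKM, followed by HSP90B1 at 474 and HSPA5 at 202. XBP1 averaged 98.8 and ASNS 91.5 FPKM. HERPUD1 averaged 33.3, TRIB3 22.2, DDIT4 9.35, CHAC1 7.71 and the row named DDIT3 3.31 FPKM. Over the libraries, neighbours in this order had overlapping ranges except HSP90B1 and HSPA5, HSPA5 and XBP1, and ASNS and HERPUD1. Spread differed widely between genes: the highest library exceeded the lowest by 1.43 times for HSPA5 and 1.63 times for ATF4, but by 8.69 times for DDIT4 and 12.7 times for CHAC1. These 2 genes rested on 58 to 724 reads (DDIT4) and 28 to 459 reads (CHAC1) per library.

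**Figure D1:**
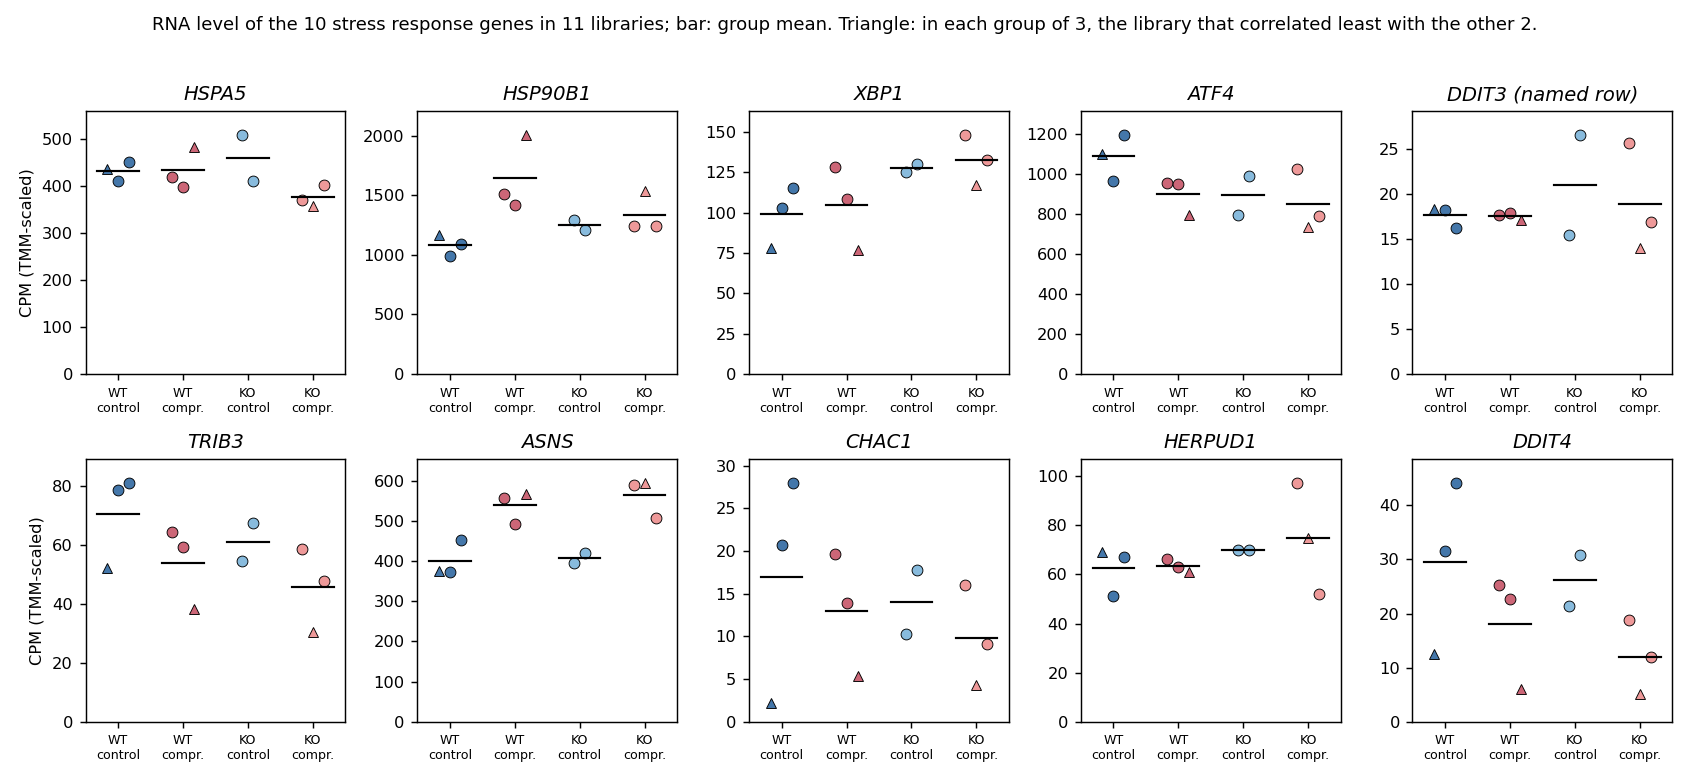
RNA level of each of the 10 genes in every library (y axis, TMM-scaled CPM from 0; x axis, group), with the group mean as a bar and, as a triangle, the library of each group of 3 that correlated least with the others. WT compressed libraries lie above WT controls for HSP90B1 and ASNS, and in CHAC1, DDIT4 and TRIB3 the triangles are the lowest points of their groups.

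Whether lateral compression moved these genes in WT cells was asked first. Of the 10, HSP90B1 alone rose by the test used, edgeR's quasi-likelihood test with Benjamini-Hochberg adjustment over 13560 genes and a threshold of 0.05. Over all genes tested 6.25% passed, 3.85% higher and 2.4% lower, so 1 of 10 is near the background. At an unadjusted p under 0.05 there were 2 of the 10, against 31.8% of all genes tested, and 3 of the 10 (HSP90B1, ASNS and ATF4) had groups that did not overlap, against 42.0%. The smallest adjusted p of any gene in this comparison was 0.0410, so every call in it lay close to the threshold. The median log2 fold change was -0.0035 over the 10 genes and -0.02 over all genes tested, with 5 of the 10 above 0 and 5 below.

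HSP90B1 encodes GRP94, the HSP90 chaperone of the ER lumen, and lies on the plus strand of chromosome 15 at 42456790 to 42474117 (CanFam3.1, as are all positions here). WT control libraries 1, 2 and 3 held 1167, 994 and 1095 CPM, and WT compressed libraries 1, 2 and 3 held 1516, 1418 and 2009 CPM. Every compressed library was above every control library, as for 21.2% of all genes tested in this direction, and WT compressed 3 was the highest of all 11. The mean was 1086 ± 87.3 CPM in control and 1648 ± 317 in compressed cells (SD, n = 3 each), a log2 fold change of 0.60 ± 0.15 (SE) with an edgeR adjusted p of 0.0448. In KO cells the 2 controls held 1290 and 1210 CPM and the 3 compressed libraries 1239, 1537 and 1240 CPM. These groups overlapped, and the difference of 0.10 ± 0.17 (adjusted p = 0.896) was not significant.

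The HSP90B1 call in WT was fragile. It was lost when any of WT control 2, WT control 3, WT compressed 1, 2 or 3, or either KO control was left out (7 of 11 omissions), with adjusted p-values of up to 0.194 and log2 fold changes of 0.44 to 0.70. Leaving out the 3 libraries that stood apart, meaning the least correlated 1 of each group of 3, gave 0.49 with an edgeR adjusted p of 0.0111. This choice was made after seeing the data. Such a rule always takes 1 library from each group of 3 and tends to narrow the spread within groups. The lower p therefore does not bear on how firm the call is.

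HSPA5 encodes BiP, the most widely used marker of ER stress, an HSP70 chaperone that binds unfolded chains and the sensors themselves (chromosome 9, 57851094 to 57855257, plus strand). Its WT control libraries held 437, 412 and 450 CPM and its WT compressed libraries 419, 398 and 483 CPM. The groups overlapped, and the log2 fold change was 0.00 ± 0.14 (adjusted p = 0.998), an estimate whose sign turned under most other settings. In KO cells the controls held 509 and 410 CPM and the compressed libraries 370, 356 and 403 CPM. All 3 compressed libraries were below both controls, as for 14.0% of all genes tested, and the difference of -0.29 ± 0.15 was not significant (adjusted p = 0.773), at -0.12 without KO control 1 and -0.44 without KO control 2. The gene overlaps RABEPK on the opposite strand by 760 bases, and no source used here says whether counting used strand.

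The transcription factor gene XBP1 (chromosome 26, 22163264 to 22168100, minus strand) ranged from 78.1 to 115 CPM in WT controls and from 76.7 to 128 CPM in WT compressed libraries. Its log2 fold change was 0.08 ± 0.20 in WT and 0.05 ± 0.22 in KO cells (adjusted p = 0.797 and 0.964). HERPUD1 (chromosome 2, 59388292 to 59399915, minus strand) encodes an ER membrane protein that helps assemble the machinery of ER-associated degradation. It spanned 51.2 to 69.1 CPM in WT controls and 61.1 to 66.5 CPM in WT compressed libraries, a difference of 0.02 ± 0.21 (adjusted p = 0.947). KO compressed libraries spread more widely for HERPUD1, from 52.2 to 97.4 CPM around controls that were both 69.8 CPM.

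ATF4, the central transcription factor of the integrated stress response (chromosome 10, 25528476 to 25530202, minus strand), did not rise. WT controls held 1103, 967 and 1197 CPM and WT compressed libraries 957, 951 and 797 CPM. Each compressed library was below each control, as for 20.8% of all genes tested, but the log2 fold change of -0.27 ± 0.16 missed the threshold (adjusted p = 0.249). In KO cells the controls held 796 and 993 CPM and the compressed libraries 1023, 736 and 790 CPM, which overlapped (-0.07 ± 0.18, adjusted p = 0.924).

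ASNS encodes asparagine synthetase, a classical ATF4 target (chromosome 14, 22715169 to 22734459, minus strand). WT controls held 374, 372 and 451 CPM and WT compressed libraries 558, 493 and 567 CPM. KO controls held 395 and 421 CPM and KO compressed libraries 590, 595 and 507 CPM. In both genotypes every compressed library was above every control library, as for 21.2% of all genes tested in WT and 13.5% in KO. All 6 compressed libraries were also above all 5 controls, as for 3.39% of all genes tested. The WT mean went from 399 ± 45.1 to 539 ± 40.4 CPM (SD, n = 3 each), a log2 fold change of 0.43 ± 0.13 (edgeR adjusted p = 0.0614). The KO change was 0.47 ± 0.15, with a p of 0.00845 before and 0.773 after adjustment. ASNS was thus called in neither genotype by the planned test. In WT, DESeq2 called it (adjusted p = 0.0288), and so did edgeR when KO compressed 2 was left out (adjusted p = 0.0322).

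**Figure D2:**
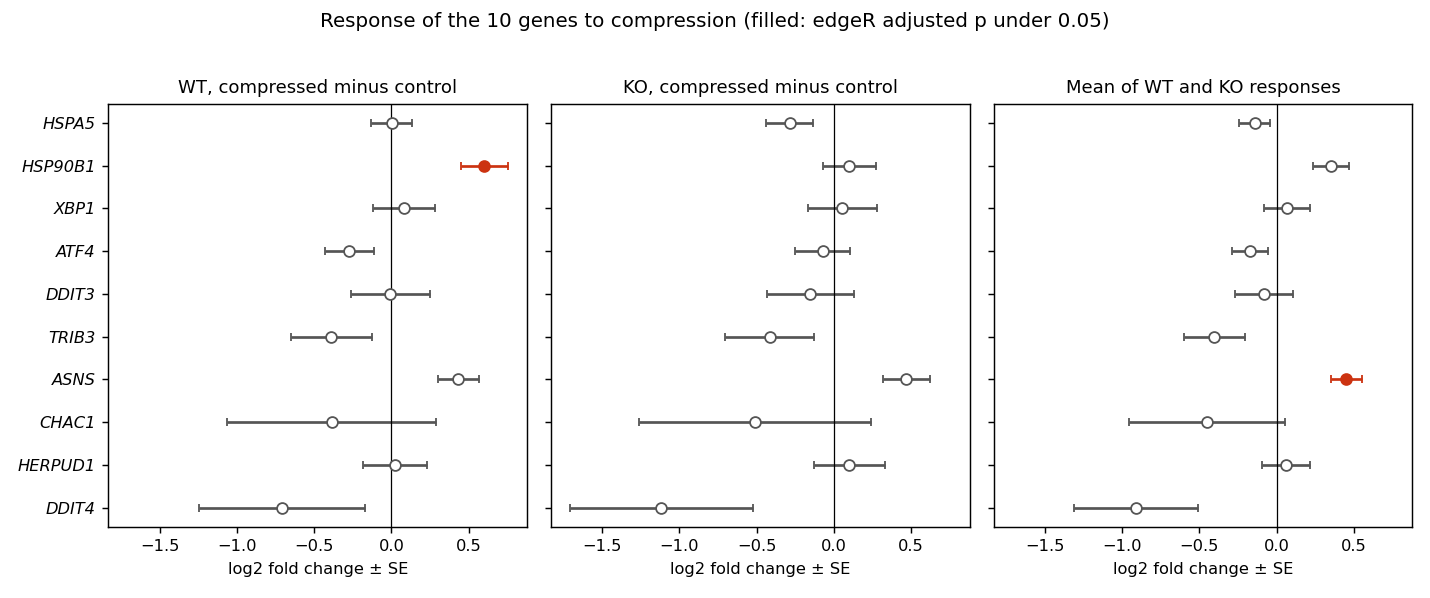
Log2 fold change of each gene, compressed minus control, with its SE (x axis; genes on the y axis), in WT, in KO and as the mean of both responses, a contrast added after the other values were seen. Filled points passed an edgeR adjusted p of 0.05: HSP90B1 at 0.60 in WT and ASNS at 0.45 in the mean response.

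After these ASNS values were seen, a sixth contrast was added to the 5 planned ones: the mean of the WT and KO responses. It was chosen because ASNS was higher in both genotypes, so its p for ASNS is not an independent test. ASNS was 0.45 ± 0.10 higher in it (adjusted p = 0.0408), where 5.58% of all genes tested passed, 3.33% higher. The call was lost when either KO control, WT control 2 or 3, or WT compressed 1 or 3 was left out (6 of 11 omissions, adjusted p up to 0.182), while the log2 fold change stayed between 0.43 and 0.50. In the same contrast HSP90B1 was 0.35 ± 0.12 (adjusted p = 0.0729, and 0.0485 without WT control 1) and the remaining 8 genes were not called.

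The other ATF4 targets among the 10 were called in neither genotype. TRIB3 encodes a pseudokinase induced by ATF4 and CHOP (chromosome 24, 20449847 to 20461222, minus strand). WT controls held 52.2, 78.7 and 81.2 CPM, and WT compressed libraries 64.4, 59.2 and 38.2 CPM. KO controls held 54.6 and 67.4 CPM, and KO compressed libraries 58.8, 30.5 and 47.7 CPM. The groups overlapped in both genotypes, and the log2 fold changes were -0.39 ± 0.26 in WT and -0.42 ± 0.29 in KO (adjusted p = 0.317 and 0.776). They ran from -0.57 (without WT control 1) to -0.19 (without WT compressed 3) in WT, and from -0.64 (without KO compressed 1) to -0.20 (without KO compressed 2) in KO.

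CHAC1 encodes an enzyme that degrades glutathione (chromosome 30, 8078374 to 8080962, plus strand). WT controls held 2.21, 20.7 and 28.0 CPM, and WT compressed libraries 19.6, 14.0 and 5.35 CPM. WT control 1 was the lowest of all 11 libraries, so the spread within the control group exceeded the difference between groups. KO controls held 10.3 and 17.8 CPM, and KO compressed libraries 16.1, 4.30 and 9.16 CPM. The log2 fold changes were -0.39 ± 0.68 in WT and -0.51 ± 0.75 in KO (adjusted p = 0.714 and 0.875), so changes in either direction of about 1 log2 unit were not detectable for CHAC1 here.

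DDIT4, also called REDD1, encodes an inhibitor of mTORC1 signalling (chromosome 4, 22917001 to 22919498, plus strand). WT controls held 12.5, 31.6 and 44.2 CPM, and WT compressed libraries 25.4, 22.6 and 6.06 CPM. KO controls held 21.5 and 30.7 CPM, and KO compressed libraries 18.9, 5.09 and 12.0 CPM. The WT groups overlapped (-0.71 ± 0.54, adjusted p = 0.373), and the value was -0.29 without WT control 3, -0.30 without WT compressed 3 and -1.07 without WT control 1. In KO cells each compressed library was below both controls, as for 14.0% of all genes tested, but the difference of -1.12 ± 0.59 was not significant (adjusted p = 0.773).

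DDIT3 encodes CHOP, a transcription factor linked to death under prolonged ER stress. The row that carries its name (chromosome 10, 1601949 to 1608728, minus strand) is 5522 bases long, has a protein match to the methionine tRNA synthetase MARS1 and overlaps MARS on the opposite strand by 4729 bases, so its reads cannot be assigned to DDIT3 with certainty. It held 16.2 to 18.4 CPM in WT controls and 17.1 to 17.9 CPM in WT compressed libraries (-0.01 ± 0.25, adjusted p = 0.987). In KO cells it held 15.4 and 26.6 CPM in controls and 14.0 to 25.7 CPM after compression.

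In KO cells 3 of the 10 genes (ASNS higher, HSPA5 and DDIT4 lower) had groups that did not overlap, against 27.6% of all genes tested, 13.5% in the higher direction and 14.0% in the lower. None of the 10 passed for compression, and neither did any of the 13560 genes in edgeR (0.0%). Before adjustment 828 genes, 6.11%, had a p under 0.05, ASNS being the 1 among the 10, and DESeq2 called 1 gene. The interaction, KO response minus WT response, also called 0 genes (0.0%, with 650 or 4.79% at an unadjusted p under 0.05, and 1 of the 10, HSP90B1). Without the 3 libraries that stood apart, the interaction called 362 genes, none of them among the 10. With so few of the tested genes called, none of 10 is not a result about these genes. That rule was chosen after the data were seen and tends to narrow the spread within groups. The 362 calls therefore do not bear on the planned test. For HSP90B1 the interaction was -0.50 ± 0.23, with an edgeR p of 0.0457 before and 0.939 after adjustment, and for ASNS it was 0.03 ± 0.20 (adjusted p = 0.985).

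Between genotypes none of the 10 genes was called either, at rest or after compression, where 0.339% (0.133% higher, 0.206% lower) and 0.789% of all genes tested passed. XBP1 was 0.37 ± 0.22 higher in KO than in WT controls (adjusted p = 0.75) without overlap, as were HSP90B1 (0.20 ± 0.17, adjusted p = 0.849) and HERPUD1 (0.16 ± 0.23, adjusted p = 0.930). These 3 of 10 compare with 31.9% of all genes tested whose groups did not overlap, 16.9% in the higher direction and 15.0% in the lower. After compression none of the 10 had groups that did not overlap, against 15.7% of all genes tested, and the smallest p was that of HSP90B1 (-0.30 ± 0.15, adjusted p = 0.499).

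Some of the spread within groups was shared between genes. In each group of 3, CHAC1, DDIT4, TRIB3 and XBP1 were lowest, and HSP90B1 highest, in the library that stood apart. Of 6 measures computed per library after the data were seen, a gene density measure was set against the genes. It used protein-coding genes with a mean of at least 5 CPM, here without TMM factors. These were ranked by the number of protein-coding genes in the 1 Mb centred on each. The measure is the median log2 deviation, from the mean of the 11 libraries, of the densest 25% minus that of the sparsest 25%. It is computed from the same expression values. It was 0.03, 0.68 and 0.34 in WT controls and -0.26, -0.11 and -0.52 in WT compressed libraries, which did not overlap. It was 0.11 and 0.18 in KO controls and 0.13, -0.67 and 0.06 in KO compressed libraries.

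The permutations behind the p-values below shuffled all 11 libraries without regard to group. The measure differed between WT control and WT compressed libraries, so these p-values also carry group differences. The share of all genes with an r of such size is not given here. HSP90B1 was lower where this measure was higher (Pearson r = -0.90, Spearman rho = -0.89, n = 11, permutation p = 0.00017 and 0.00055, adjusted over 10 genes to 0.0017 and 0.0055). Without the 2 libraries farthest from the median, r was -0.96. TRIB3 (r = 0.85, rho = 0.75, permutation p = 0.00123 and 0.0102, adjusted to 0.00615 and 0.0387) and DDIT4 (r = 0.79, rho = 0.75, permutation p = 0.00327 and 0.0116, adjusted to 0.0109 and 0.0387) were higher with it, each with r = 0.69 without those 2 libraries. For ASNS r was -0.71 and rho -0.63 (permutation p = 0.0120 and 0.0433, adjusted to 0.0300 and 0.0866), and r was -0.51 without the 2 libraries, so that relation rests in part on them. For CHAC1 r was 0.57 and rho 0.68 (permutation p = 0.0698 and 0.0248, adjusted to 0.116 and 0.0620), and 0.38 without the 2. The values for ATF4 were 0.58 and 0.59 (permutation p = 0.0611 for both, adjusted to 0.116 and 0.102), with r = 0.51 without the 2. The remaining 4 genes had r of 0.37 (DDIT3), 0.21 (XBP1), 0.13 (HSPA5) and -0.23 (HERPUD1), with rho of 0.37, 0.21, 0.15 and -0.07 (permutation p of 0.260 to 0.838, adjusted p of 0.371 to 0.838). As deviations from the group means, r was -0.85 for HSP90B1, 0.87 for TRIB3, 0.80 for DDIT4, 0.75 for CHAC1, 0.65 for XBP1, 0.49 for DDIT3, 0.38 for ATF4, -0.16 for HSPA5, -0.22 for HERPUD1 and -0.35 for ASNS.

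With the measure as a term in the fit, WT compression called 0 genes (1624 at an unadjusted p under 0.05). The measure comes from the same expression values and did not overlap between WT control and WT compressed libraries. Its term and compression therefore cannot be told apart, and the values that follow are not corrected estimates. HSP90B1 was then 0.27 higher in WT (adjusted p = 0.484), and ASNS 0.34 (adjusted p = 0.416). In the mean response ASNS was 0.38 with an edgeR p of 0.00600 before and 0.388 after adjustment. DDIT4 turned from -0.71 to 0.79, TRIB3 from -0.39 to 0.32 and CHAC1 from -0.39 to 1.5 in WT, none of them called.

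**Figure D3:**
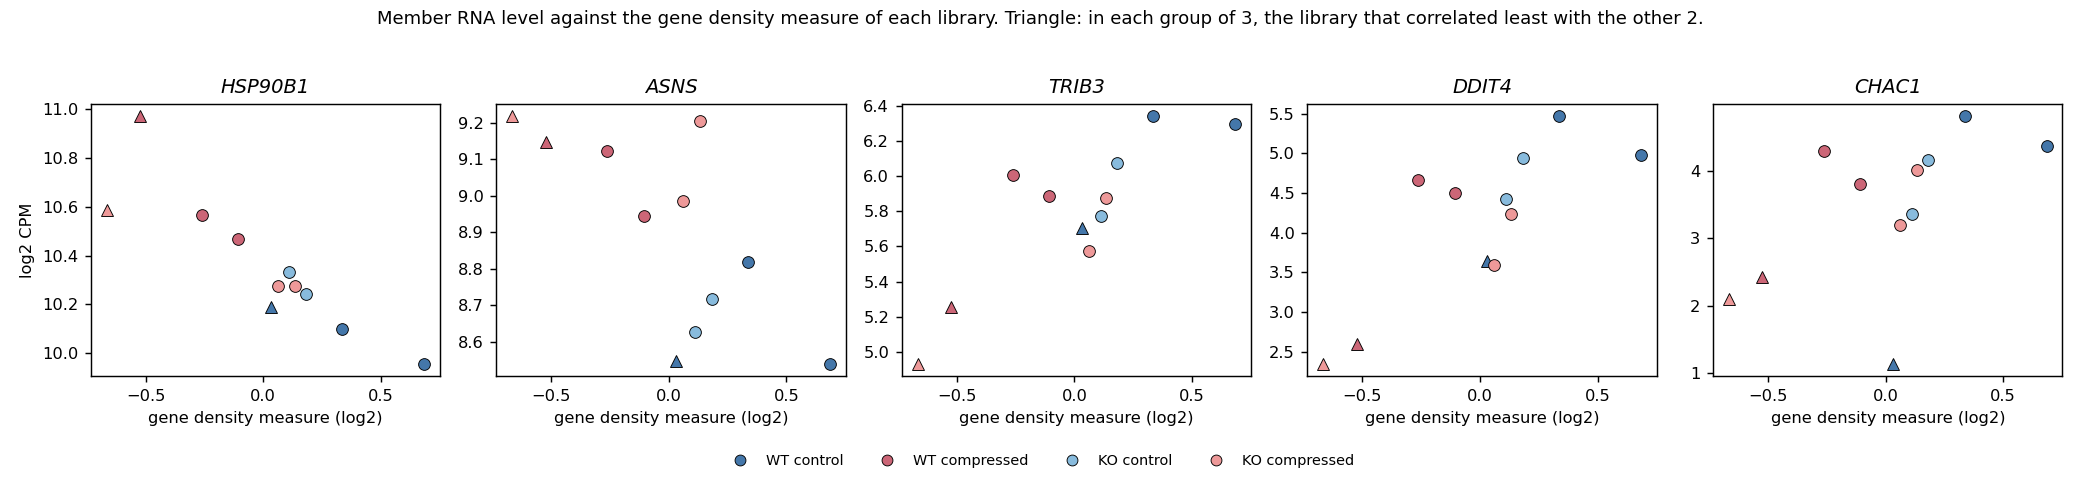
Level of 5 genes in each library (y axis, log2 CPM) against the library's gene density measure (x axis, log2), coloured by group, with triangles for the libraries that stood apart. HSP90B1 falls along the axis, within groups as well as between them. TRIB3 and DDIT4 rise along it, but within each WT group that rise rests on the triangle. The 5 genes were picked after their values were seen.

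Within a library, 2 pairs of genes were set against each other as ratios of FPKM, also chosen after the values were seen and given as a description. HSP90B1 was 1.79 to 2.19 times HSPA5 in the 5 control libraries and 2.28 to 3.20 times in the 6 compressed ones. ASNS stood at 0.106 to 0.156 of ATF4 in controls and at 0.162 to 0.254 in compressed libraries. ASNS by itself was above all controls in all compressed libraries, as for 3.39% of all genes tested. How many other gene pairs separate the libraries in this way is not given here, so the separation is not a result about these pairs. The highest ratio of each pair in each compressed group was in the library that stood apart.

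**Figure D4:**
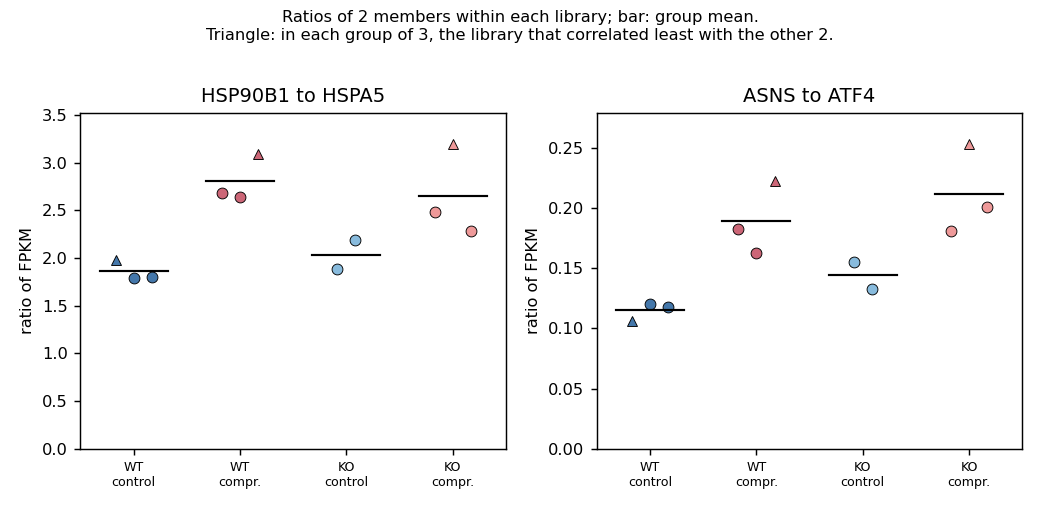
Ratio of FPKM within each library (y axis, from 0) for HSP90B1 to HSPA5 and for ASNS to ATF4, by group (x axis), with the group mean as a bar. Compressed libraries lie at 2.28 and 0.162 or above and controls at 2.19 and 0.156 or below. The pairs were chosen after their values were seen.

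The other genes of the pathway were read from 6 lists of 107 genes, of which 106 were found and 104 tested. In WT compression 6 of the 104 passed, all higher, against 6.25% of all genes. ERO1L, an oxidase that drives disulfide formation in the ER, rose from 150 ± 35.4 to 252 ± 36.4 CPM (SD, n = 3 each), a log2 fold change of 0.75 ± 0.19 (adjusted p = 0.0437). EIF2S3, the gamma subunit of eIF2, rose by 0.57 ± 0.16 (adjusted p = 0.0486). Among 20 cytosolic aminoacyl-tRNA synthetases, which charge tRNAs and include ATF4 targets, 4 rose: TARS by 0.59 ± 0.15, EPRS by 0.54 ± 0.14, FARSB by 0.58 ± 0.16 and DARS by 0.54 (adjusted p = 0.0448, 0.0470, 0.0471 and 0.0489). DARS was named after its values were seen. Without the 3 libraries that stood apart, 34 of the 104 passed, and with the gene density term 0 did. Calls over all genes also rose steeply under the first setting and fell to 0 under the second, so the 6.25% is not their background.

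None of 26 tested genes regulated by ATF4 or CHOP passed in WT, and 18 of the 26 were below 0. Their median was -0.29 against -0.02 for all genes tested, of which 48.5% were above 0. Whether the list as a whole differed from other genes was not tested. The smallest p was that of XPOT, a tRNA exporter, at 0.52 ± 0.15 (adjusted p = 0.0530). None of 17 genes of ER-associated degradation passed (median -0.07), with the lectin gene OS9 at -0.54 ± 0.17 (adjusted p = 0.0609). Of 21 chaperones and disulfide enzymes only ERO1L passed (median -0.09). None of 7 tested genes on the ER stress sensor list, which includes protease genes, passed (median 0.12), with the protease gene MBTPS2 at 0.47 ± 0.16 (adjusted p = 0.0746). ERN1, the gene for the sensor IRE1, was on that list but was not found by name, so its RNA was not tested. The 13 eIF2 genes had a median of 0.13 and the synthetases 0.09.

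In KO compression none of the 104 passed, nor did any in the genotype comparisons or the interaction. The KO medians were -0.24 for the ATF4 and CHOP list, with 18 of 26 below 0, and -0.05 to 0.07 for the others. Over all genes tested the KO median was -0.0036, with 49.4% above 0. The KO gene with the smallest p of each list had an adjusted p of 0.773. These were CREB3L2, an ER stress sensor, at -0.65 ± 0.28, PPP1R15A, the eIF2 phosphatase subunit GADD34, at -0.67 ± 0.33, HYOU1, an ER chaperone, at -0.36 ± 0.17, UBE2J2, a ubiquitin-conjugating enzyme of ER-associated degradation, at -0.40 ± 0.20, BBC3 at -0.94 ± 0.46 and the arginine tRNA synthetase RARS at 0.35 ± 0.18. CREB3L2 was the only 1 of the 104 with an unadjusted p under 0.05 in KO compression.

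Between KO and WT controls the genes with the smallest p in their lists were MBTPS2 (0.26 ± 0.17), PPP1R15A (0.70 ± 0.33), ERO1L (0.60 ± 0.21), EDEM1 (0.39 ± 0.17), ATF3 (-0.57 ± 0.28) and FARSA (-0.46 ± 0.22), with adjusted p-values of 0.457 to 0.797. Between compressed KO and WT cells they were MBTPS1 (-0.25 ± 0.12), EIF2B1 (-0.41 ± 0.16), P4HB (-0.25 ± 0.15), EDEM1 (0.46 ± 0.15), NUPR1 (0.84 ± 0.25) and EPRS (-0.34 ± 0.14), with adjusted p-values of 0.185 to 0.599. For the interaction they were MBTPS2 (-0.38 ± 0.23), EIF2S3 (-0.48 ± 0.23), ERO1L (-0.39 ± 0.28), EDEM2 (0.61 ± 0.35), NUPR1 (1.01 ± 0.38) and EPRS (-0.49 ± 0.21), each with an adjusted p of 0.939. EDEM1 and EDEM2 take part in the disposal of misfolded glycoproteins, and P4HB is a disulfide isomerase.

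In the added mean response 3 of the 104 passed, all higher, against 5.58% of all genes tested, 3.33% higher. The list genes were thus not called more often than other genes. They were ERO1L (0.56 ± 0.14), FARSB (0.45 ± 0.12) and RARS (0.46 ± 0.12), with edgeR adjusted p-values of 0.0454, 0.0465 and 0.0475. In the lists without a call, the smallest p belonged to CREB3L2 (-0.54 ± 0.19), EIF2S1 (0.31 ± 0.11), UBE2J2 (-0.45 ± 0.14) and PSPH (0.51 ± 0.14), with adjusted p-values of 0.0845, 0.0866, 0.0597 and 0.0503.

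**Figure D5:**
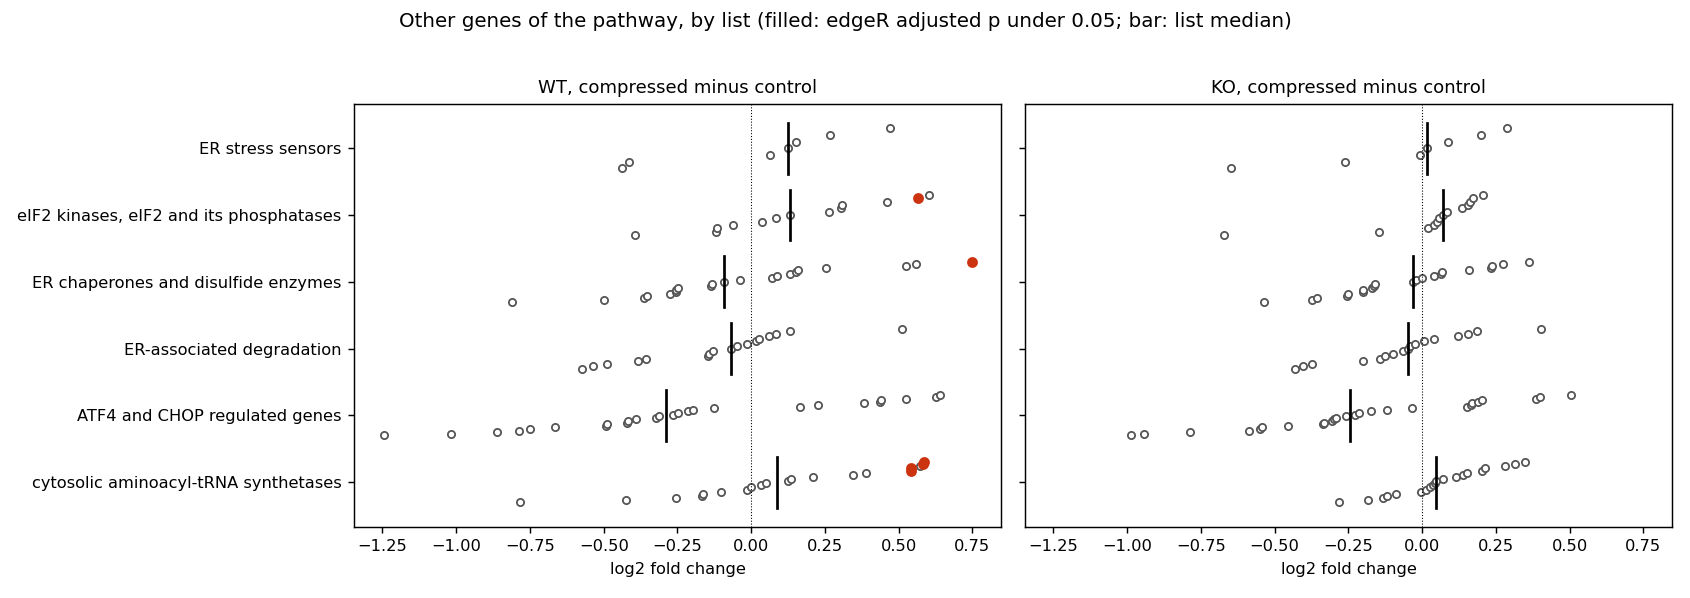
Log2 fold change of each tested gene in 6 pathway lists (x axis; lists on the y axis), compressed minus control, in WT and KO, with the list median as a bar. Filled points passed an edgeR adjusted p of 0.05: 6 in WT, all higher, and 0 in KO. The ATF4 and CHOP list has medians of -0.29 and -0.24, against -0.02 and -0.0036 for all genes tested.

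Over the 11 libraries, the genes most like HSPA5 among 9999 were GATA6 (Pearson r = 0.84), USP42 (0.82) and TANC1 (0.80), and those most like ASNS were COMMD6 (0.97), RPS3A (0.95) and B2M (0.95). HSP90B1 followed HSPA5 with an r of 0.13 and ASNS with an r of 0.69. These likenesses share the same libraries and groups and are given as a description.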

How the data were processed

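RNA with poly(A) tails was enriched on oligo(dT) beads and copied with random hexamers, per the labels' protocols. CASAVA, FastQC, HISAT2 2.0.5 and CanFam3.1 are named in the submitters' processing notes; no source used here gives the gene counter, annotation release, filters or strand setting. The deposited table holds read counts per gene and FPKM by the authors. The deposited counts were tested with edgeR 4.0.16 (R 4.3.3; TMM, filterByExpr over 4 groups, glmQLFit and glmQLFTest) in 1 fit over 11 libraries with 7 residual degrees of freedom, and p-values were adjusted by Benjamini-Hochberg over 13560 genes; SEs are the log2 fold change divided by the square root of F. FPKM served to compare levels between genes and, with limma 3.58.1 on log2(FPKM + 1) or log2(FPKM + 0.1), as an alternative; DESeq2 1.42.0 was another. The script was tested on simulated data.

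The 10 genes, the lists and the tests were chosen with earlier results of these data known. Named are all 10 genes, LMNA, in each comparison up to 3 called genes per list (or the 1 with the smallest p), and the 3 genes most like HSPA5 and ASNS among those of at least 5 CPM. The list gene not found, ERN1, is named as well. Of 6 contrasts examined, 5 were planned. The mean of the WT and KO responses was added after ASNS had missed the threshold in both genotypes. The gene density term, leaving out 3 libraries, and the ratios were also added after the data were seen; of 6 library measures (total reads, genes detected, share of the top 10 genes, mitochondrial share, slope on gene length, gene density) only the last was set against the genes.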

Additional observations from a re-analysis of the deposited data

How the results depend on the processing

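CHAC1 and DDIT4 had the lowest read counts of single libraries among the 10 genes (28 and 58) and the highest biological coefficients of variation in the edgeR fit (0.57 and 0.45), so small changes in them were not detectable. Of 600 values of the 10 genes under 10 other settings, 552 kept their direction and side of the threshold, 7 lost a call, 3 gained one and 38 changed sign, none of these 38 called. The cause was not tested where a value changed.

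The number of genes called in WT compression was 848 and is not stable: 1754 with no filter on low counts, 2476 with DESeq2, 0 with the replicate block, 0 and 1 with limma on log2(FPKM + 1) and log2(FPKM + 0.1), 3497 without the 3 libraries that stood apart and 0 with the gene density term. In the same order the mean response (756) gave 1619, 2272, 0, 265, 9, 2471 and 0. KO against WT at rest (46) gave 90, 125, 15, 16, 8, 802 and 89, and after compression (107) 201, 352, 53, 59, 50, 723 and 305. KO compression (0) gave 1 with DESeq2 and with limma on log2(FPKM + 1), and 13 without the 3 libraries, and the interaction (0) gave 362 without them. With 1 library left out the counts ran from 0 to 3066 (WT), 0 to 2106 (mean response), 6 to 106 (at rest), 39 to 349 (compressed) and 0 to 1 (interaction).

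Of the 10 genes, 1 was called in WT compression; the count was 2 with DESeq2 and 0 with the replicate block, both limma fits and the gene density term. In the mean response (1) it was 2 with DESeq2 and without the 3 libraries, and 0 with the replicate block, limma on log2(FPKM + 0.1) and the density term. Where these counts moved under another setting, calls over all genes moved in the same direction. Leaving out 1 library gave 0 to 2 of the 10 in both contrasts. HSP90B1 in WT lost its call at 0.59 with the replicate block (adjusted p = 0.111), 0.57 in both limma fits (0.0631 and 0.0667) and 0.27 with the density term. ASNS gained one in WT with DESeq2 (0.42, adjusted p = 0.0288), and in the mean response lost it with the replicate block (0.44, adjusted p = 0.124), limma on log2(FPKM + 0.1) (0.44, 0.0557) and the density term (0.38). In the mean response HSP90B1 was called by DESeq2 (0.34, adjusted p = 0.0472) and DDIT4 without the 3 libraries (-0.71, 0.0175).

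Of the pathway genes, 6 were called in WT compression, against 14 with no filter, 22 with DESeq2, 34 without the 3 libraries and 0 with the replicate block, both limma fits and the density term (0 to 24 with 1 library left out). The mean response (3) gave 11, 17, 20 and 0 in the same order (0 to 16). Without the 3 libraries there were 7 at rest, 3 after compression and 2 for the interaction. Calls over all genes, given above, moved in the same direction under each of these settings. In the main fit 6.25% of all genes tested passed in WT compression and 5.58% in the mean response. The counts of list genes are therefore not a result about the pathway. Leaving out 1 library gave 0 to 2 list genes after compression.

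HSPA5 in WT was -0.0125 with RLE scaling, -0.00491 with no filter, -0.0027 with the replicate block, -0.0139 with DESeq2, -0.018 and -0.0181 with limma, -0.0763 without the 3 libraries and -0.0447 with the density term. With the density term, CHAC1 was 1.5 in WT, 0.15 in KO, 0.82 in the mean response and 0.45 at rest; DDIT4 0.79 in WT, 0.1 in the mean and 0.36 at rest; TRIB3 0.32, 0.0924 and 0.024; DDIT3 0.32 in WT and 0.15 in the mean; HERPUD1 -0.0596 in WT and -0.000517 in the mean; HSP90B1 -0.0603 in KO. Without the 3 libraries, ASNS was -0.0129 at rest, ATF4 0.0192 and HSP90B1 -0.0125 in KO, DDIT3 0.0419 in WT, 0.014 in KO and 0.028 in the mean, and the interaction was 0.37 for CHAC1, -0.0323 for HERPUD1, 0.17 for TRIB3 and 0.0169 for XBP1. With limma, CHAC1 was 0.14 and 0.28 at rest and 0.0316 in WT. With the replicate block, the interaction was 0.00477 for TRIB3 and 0.00876 for XBP1.

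With 1 library left out, some values changed sign without being called. In WT these were CHAC1 (-0.9 to 0.18), DDIT3 (-0.0636 to 0.0221), HERPUD1 (-0.1 to 0.1), HSPA5 (-0.0831 to 0.0576) and XBP1 (-0.0937 to 0.26). In KO they were ATF4 (-0.23 to 0.0925), DDIT3 (-0.5 to 0.29), HERPUD1 (-0.14 to 0.3), HSP90B1 (-0.0124 to 0.15) and XBP1 (-0.0348 to 0.14). In the mean response they were DDIT3 (-0.25 to 0.14), HERPUD1 (-0.0583 to 0.16) and XBP1 (-0.0123 to 0.16). Between genotypes at rest they were ASNS (-0.0188 to 0.13), CHAC1 (-0.79 to 0.29), DDIT3 (-0.19 to 0.59), DDIT4 (-0.54 to 0.24) and HSPA5 (-0.0807 to 0.23), and after compression ATF4 (-0.24 to 0.00678), CHAC1 (-0.94 to 0.0475), DDIT3 (-0.18 to 0.28) and HERPUD1 (-0.00362 to 0.44). For the interaction they were ASNS (-0.0633 to 0.11), CHAC1 (-0.69 to 0.39), DDIT3 (-0.49 to 0.3), HERPUD1 (-0.16 to 0.28), TRIB3 (-0.25 to 0.19) and XBP1 (-0.21 to 0.16).

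Whether equal replicate numbers mark paired samples was not settled here. Deviations from the group mean of same-numbered control and compressed libraries correlated at -0.15, 0.25 and -0.00032 in WT, and at -0.17 and -0.13 in KO. Differently numbered WT libraries gave -0.30 to 0.25. Deviations within so small a group depend on each other, so these values cannot show or exclude pairing.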
